A study of Mus musculus with 6 samples.

Results

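Otol1, Oc90 and Otoa are genes for proteins of the extracellular matrices that cover the sensory patches of the inner ear. They were followed in otocysts, the epithelial vesicles from which the inner ear forms, of mouse embryos with different doses of the chromatin remodeller gene Chd7. The members were taken by exact gene symbol from the authors' deposited lists of changed genes, and these symbols are 3 of the 1167 distinct genes listed in either comparison. RNA had been sequenced as polyadenylated transcripts from otocysts microdissected at embryonic day 10.5, with 2 libraries each for Chd7+/+, Chd7Gt/+ and Chd7Gt/Gt embryos on the B6129SF1/J strain background. Gt denotes, in mouse nomenclature, a gene trap allele. The lists give a log2 fold change against wild type and an adjusted p for each called gene, with no value per library, so depth is unknown and no fold below carries a standard error. The labels do not say whether libraries of 1 genotype were made from different embryos, and the spread behind each adjusted p may therefore be technical. Marker levels for the dissected tissue cannot be read from such lists, which hold only changes. In dissected tissue, fewer cells of a type and less RNA per cell cannot be told apart.

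The gravity-sensing patches of the ear, the utricle and saccule, carry a gel loaded with otoconia, which are crystals of calcium carbonate grown on a protein scaffold. The scaffold and the gels above the semicircular canal cristae and the cochlea are secreted by the otic epithelium itself. Oc90 encodes otoconin-90, the main soluble protein of the mouse otoconial scaffold, built from domains that resemble secreted phospholipase A2. Otol1 encodes otolin-1, a collagen-like protein with a C1q domain that joins the scaffold fibrils. Otoa encodes otoancorin, a protein at the apical surface of non-sensory cells where the gels are anchored, and loss of the human gene causes recessive deafness. In the mouse, crystals appear well after the stage sampled here, so the transcripts measured precede the structures they serve.

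All 3 genes were listed as lower in homozygous otocysts in the authors' deposited table. Since the genes were chosen from these lists, the falls are a description and no test was made of them. Taking all 21924 protein-coding genes of the annotation as the genes tested, 2.97% were listed as lower in homozygotes, 1.78% as higher and 4.75% in either direction. The number of genes the authors tested is not given in the sources used here.

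Otol1, the collagen-like scaffold gene, showed the deepest fall of the 3. Its level in homozygotes was 5.64% of wild type, a log2 fold of -4.15 with an adjusted p of 2.74e-08 in the authors' deposited table. Of the 669 genes listed as lower, it held rank 3 by fold. Few calls lay close to it: 5 other lower genes had a log2 fold within 0.25 of its own, and 2 of these had a smaller adjusted p. By adjusted p it held rank 54 among the lower genes.

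Oc90, the main scaffold gene, stood at 21.7% of wild type, with a log2 fold of -2.21 and an adjusted p of 1.79e-07 by the authors' deposited table. It held rank 115 of 669 by fold and rank 69 by adjusted p. Of the 108 other lower genes within 0.25 of its log2 fold, 9 had a smaller adjusted p, and the median of the 108 was 0.00559 in the authors' deposited table.

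Otoa, the anchoring gene, stood at 28.7% of wild type, with a log2 fold of -1.80 and an adjusted p of 0.0373 by the authors' deposited table. It held rank 222 by fold and rank 594 by adjusted p, and 73 lower genes had a larger adjusted p. Of the 131 other lower genes within 0.25 of its log2 fold, 117 had a smaller adjusted p, with a median of 0.00639 in the authors' deposited table. Otoa was therefore the member nearest the limit of the lists, whose largest adjusted p among lower homozygous genes was 0.0499 in the authors' deposited table.

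The members differed among themselves. Otol1 was 17.7-fold lower and Oc90 4.61-fold lower, a difference of 1.94 on the log2 scale, while they held ranks 54 and 69 by adjusted p in the authors' deposited table. Oc90 and Otoa differed by 0.40 on the log2 scale, with ranks 69 and 594 by adjusted p in the authors' deposited table. Without a standard error for each fold, neither difference could be tested. The lists give no baseline level, so the abundance of the 3 transcripts in the wild type otocyst cannot be ordered.

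Other changes went with the falls of the members in the same homozygous comparison. Xist, the X-inactivation transcript, which differs between the sexes, was higher by a log2 fold of 9.64 by the authors' deposited table, and embryo sex is not among the labels. Of 13 genes that respond to low oxygen all 13 were higher, with a median log2 fold of 3.18, and of 13 heat shock and immediate early genes 6 were higher and 7 not listed, with a median of 3.44 over the 6, by the authors' deposited table. These 2 lists were chosen after their values were seen. Among cell type markers, 4 of 5 for neuroblasts and 3 of 5 for the periotic mesenchyme were lower in the authors' deposited table. There 1 of 5 for the hindbrain was higher, and 3 of 12 for the otic epithelium, Oc90 included, were lower. Over all protein-coding genes 2.97% were listed as lower in homozygotes and 1.78% as higher. The neuroblast gene Neurod4 (log2 -4.13) and the mesenchyme gene Pou3f4 (-4.00) had folds near that of Otol1 in the authors' deposited table. In heterozygotes, where no member was listed, Xist and both stress lists had no call either. Markers were called there: 3 of 5 for the periotic mesenchyme and 2 of 5 for the hindbrain were lower in the authors' deposited table. Of the 5 for neuroblasts 1 was lower and 1 higher, and 0 of 12 for the otic epithelium were listed. The share listed over all protein-coding genes in heterozygotes was 0.611%. The part of embryo sex, of stress in the tissue and of the cells each dissection held in the falls of Otol1, Oc90 and Otoa was not tested.

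**Figure D1:**
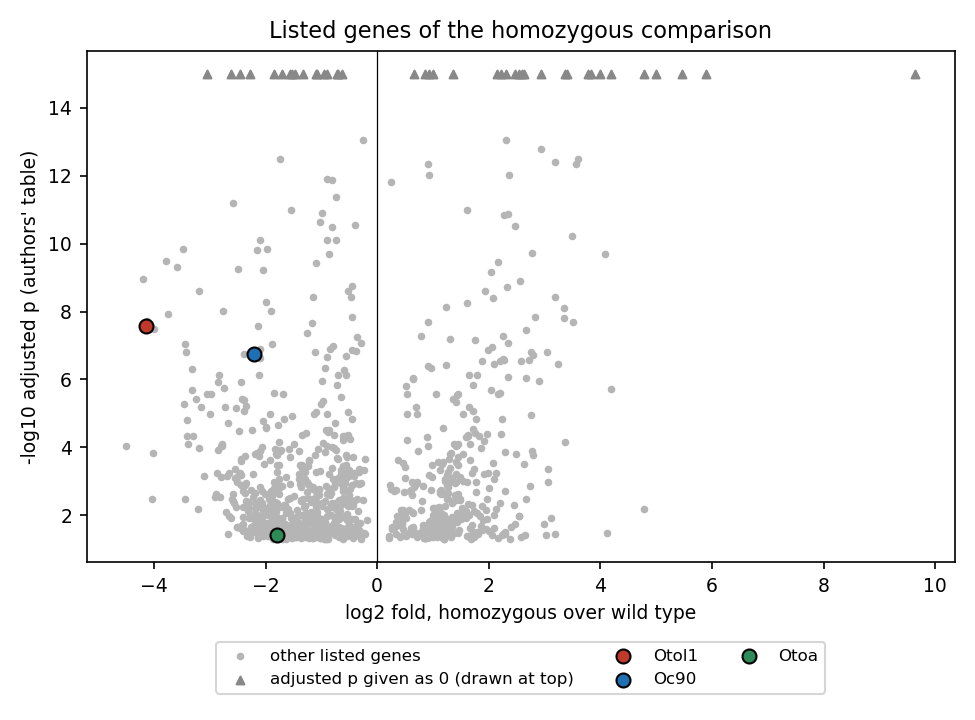
Each point is a gene listed in the homozygous comparison, with its log2 fold over wild type on the horizontal axis and the -log10 of the adjusted p on the vertical axis, both from the authors' deposited table. Triangles at the top are the 41 genes whose adjusted p is given as 0. Otol1 lies at the far left (-4.15), Oc90 stands above most genes of its fold (-2.21), and Otoa (-1.80) lies among the genes with the largest adjusted p.

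In heterozygous otocysts none of Otol1, Oc90 and Otoa was listed, in either direction. Over all protein-coding genes 0.611% were listed there, 0.429% as lower and 0.182% as higher, so a gene of any kind was rarely called. The trapped gene Chd7 had, in the authors' deposited table, 67.1% of its wild type level in heterozygotes (adjusted p 7.27e-07) and 22.4% in homozygotes (adjusted p 1.54e-10). Absence from the heterozygous lists does not show that the members were unchanged: neither a fold nor an unadjusted p accompanies a gene that was not called, and the submitters' processing notes name DESeq as a tool without giving its filters. The listed heterozygous folds reached down to a log2 size of 0.11 among lower genes and 0.070 among higher genes in the authors' deposited table. Any minimum fold used for both directions was therefore no higher than 0.070. The wild type libraries served for both comparisons, and whether the change of a member differed between the genotypes was not tested.

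The other genes of these matrices were read from a list of 23 that includes the 3 members. In homozygotes 7 of the 23 were lower, 1 was higher and 15 were not listed in the authors' deposited table. Without the members the counts were 4 lower and 1 higher of 20, or 25.0% listed, against 4.75% over all protein-coding genes. The list was chosen with earlier results of these data known, and no test was made of it. The median log2 fold of those 5 was -1.29, and for comparison the 669 lower and 416 higher genes of the whole comparison had median log2 folds of -1.35 and 1.31 as the authors' deposited table gives them.

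Those 4 lower genes besides the members encode proteins of the gels. Otogl, for otogelin-like, a glycoprotein of the acellular membranes, was at 13.4% of wild type (log2 fold -2.90 with adjusted p 0.00284, from the authors' deposited table). Zpld1, for a zona pellucida domain protein found in the cupula of the cristae, was at 24.2% (log2 fold -2.05 with adjusted p 0.0265, from the authors' deposited table). Otogl thus lay between Otol1 and Oc90 in fold, and Zpld1 between Oc90 and Otoa. Col9a3 (log2 -1.29, adjusted p 0.0131) and Col9a2 (log2 -1.07, adjusted p 0.0265), which encode chains of the type IX collagen of cartilage and of the tectorial membrane, had smaller folds in the authors' deposited table. Both collagen chains are also made by cartilage precursors around the otocyst, and the part of such tissue in their falls was not tested.

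Sparcl1, for a SPARC-like calcium-binding protein that is also found in otoconia, went the other way. It was higher in homozygotes (log2 0.91, adjusted p 0.0416) and lower in heterozygotes (log2 -0.64 with adjusted p 1.14e-05) by the authors' deposited table. Col11a1, for a fibrillar collagen chain, was listed as lower in heterozygotes and not listed in homozygotes (log2 fold -0.35 with adjusted p 0.0425, from the authors' deposited table). These were the 2 genes of the 23 listed in heterozygotes, or 8.70%, against 0.611% over all protein-coding genes. The 15 genes not listed in homozygotes included Otog, Tecta, Tectb and Ceacam16 of the tectorial and otolithic membranes, Sparc of the otoconia and Coch, the gene for cochlin. Whether these genes had enough reads to be tested at this stage is not given in the sources used here.

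**Figure D2:**
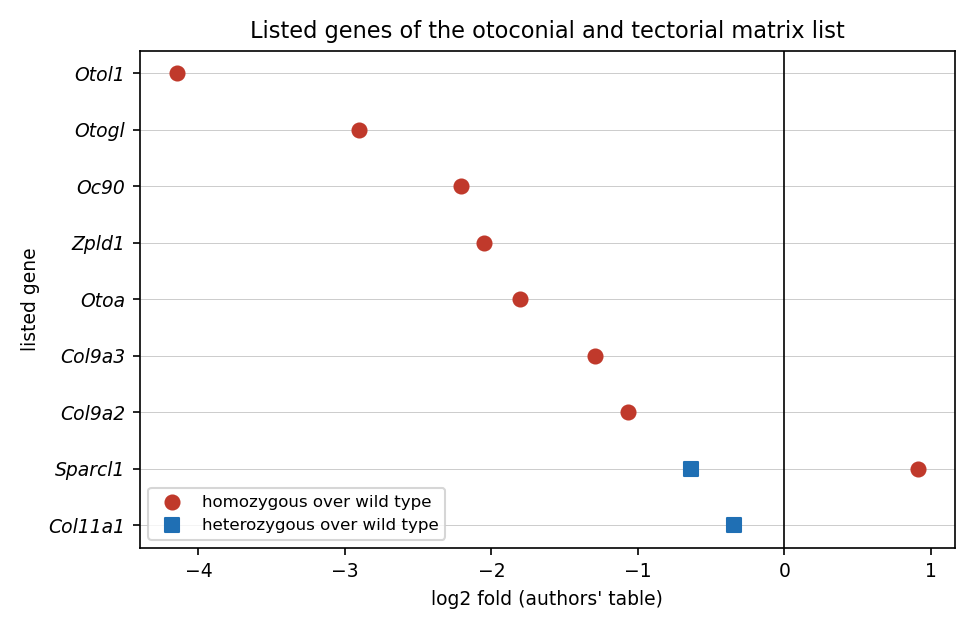
Log2 fold over wild type, from the authors' deposited table, of the 9 genes of the matrix list that were listed in at least 1 comparison, with homozygous values as circles and heterozygous values as squares. A missing symbol means not listed. The 3 members and Otogl, Zpld1, Col9a3 and Col9a2 have homozygous values alone, from -4.15 to -1.07, and Sparcl1 has values on both sides of 0.

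Formation of otoconia also needs ions and an oxidase complex, whose genes were read from a list of 19 that includes Otop1, Nox3, Noxo1, Slc26a4 and the plasma membrane calcium pump gene Atp2b2. Of these 1 was listed, Car2, for a carbonic anhydrase that forms bicarbonate, which was lower in homozygotes (log2 fold -1.23 with adjusted p 0.0301, from the authors' deposited table). The other 18 were not listed in homozygotes, and none of the 19 was listed in heterozygotes in the authors' deposited table. The 1 of 19 listed in homozygotes, or 5.26%, is near the 4.75% over all protein-coding genes, so nothing can be read from it about this set. Without the members, which were chosen for being listed, 25.0% of the 20 scaffold and gel genes were listed there, 4 lower and 1 higher. Both lists were chosen with earlier results of these data known, so these shares are a description. The difference between the lists was not tested.

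Relatives of the members by protein family were read from short lists, beside the 4.75% of all protein-coding genes listed in homozygotes. Of 30 genes for proteins with a C1q domain, 2 were listed as lower in homozygotes, Otol1 and C1ql3, a gene for a secreted synaptic protein (log2 fold -2.54 with adjusted p 0.000803, from the authors' deposited table). Of the 12 genes of the secreted phospholipase A2 family, and of the 4 genes related to mesothelin, Oc90 and Otoa were the only ones listed. Without the members, 1 of 29, 0 of 11 and 0 of 3 genes were listed. Lists of these sizes would hold few calls at the share over all genes, so nothing can be read from these counts about the families. Strc, for stereocilin, belongs to the mesothelin-related set and was not listed. None of these families had a heterozygous call.

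Regulators of the otic vesicle were read from a list of 36 genes. In homozygotes 7 were lower, 1 was higher and 28 were not listed, and in heterozygotes all 36 were not listed, in the authors' deposited table. The share listed in homozygotes was 22.2%, against 4.75% over all protein-coding genes. In heterozygotes 0.611% of all protein-coding genes were listed, so few calls would be found in 36 genes at that share. The list was chosen with earlier results of these data known, and no test was made of it. Otx1, a homeobox gene that mice need to form the lateral semicircular canal, fell to 5.42% of its wild type level by the authors' deposited table (log2 -4.20, adjusted p 1.13e-09). Fgf10, a growth factor gene of the otic epithelium needed for canal formation, fell to 25.7% (log2 -1.96 with adjusted p 0.00232) by the authors' deposited table. Eya1 (log2 -1.33, adjusted p given as 0) and Eya4 (log2 -1.30, adjusted p 0.0283), which encode transcriptional coactivators of the Eya family, fell as well in the authors' deposited table. Tbx3, a T-box gene (log2 -1.16, adjusted p 2.19e-08), and Lfng, a modifier of Notch receptors (log2 -1.07, adjusted p 0.0319), had smaller falls in the authors' deposited table. The single higher gene was Bmp4, a growth factor gene of the future cristae (log2 fold 1.78 with adjusted p 1.46e-05, from the authors' deposited table). Pax2, Pax8, Gata3, Dlx5 and Hmx3, which mark the otic epithelium, were not listed, so the falls of Otol1 and Oc90 were not accompanied by calls in these markers. As levels were not used here, how much otic epithelium each dissection held was not tested.

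The genes with a fold most like that of each member were found among genes listed as lower in homozygotes and not listed in heterozygotes, the pattern of all 3 members over the 2 comparisons. For Otol1 these were Otx1, at a distance of 0.06 in log2 fold, then Fgf20, a growth factor gene of the cochlear sensory epithelium (log2 -4.02, distance 0.12), and Gnat3, the taste transducin gene (log2 -4.50, distance 0.35), by the authors' deposited table. For Oc90 they were the integrin gene Itga7 (log2 -2.21), Slfn10-ps (-2.20) and the homeobox gene Uncx (-2.20), by the authors' deposited table. For Otoa they were Ncan (log2 -1.80), for the brain proteoglycan neurocan, Slfn9 (-1.81) and Bsn (-1.80), for a presynaptic scaffold protein, by the authors' deposited table. The distances for Oc90 and Otoa were at most 0.0056, because many calls had folds of that size, and the adjusted p-values of the neighbours of Oc90, from 0.0119 to 0.0229, were far above its own in the authors' deposited table.

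The members share no place in the genome. In the GRCm38 annotation Otol1 is on chromosome 3, Oc90 on chromosome 15 and Otoa on chromosome 7, and no annotated gene overlaps any of them. Their nearest protein-coding neighbours, Sptssb and Sis for Otol1, Efr3a and Hhla1 for Oc90, and Mettl9 and Hs3st2 for Otoa, were not listed in either comparison. Over all protein-coding genes 4.75% were listed in homozygotes and 0.611% in heterozygotes. At those shares so few neighbours would rarely hold a call, so nothing can be read from their absence.

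Their transcripts differ in length and in exon number. The longest coding transcript of Otol1 has 2161 nt in 5 exons, with 1446 nt of coding sequence, that of Oc90 has 1909 nt in 15 exons, with 1455 nt coding, and that of Otoa has 3773 nt in 29 exons, with 3411 nt coding. Over the higher homozygous genes the median length was 2698 nt, and over the lower genes 4868 nt, by the longest transcript of each. Otol1 and Oc90 were short for lower genes: 7.37% of the 665 lower genes with a length were shorter than Otol1 and 5.41% were shorter than Oc90. Among the 265 other listed genes within 0.5 log2 of the length of Otol1, 40.4% were lower, and for Oc90 the share was 35.6% of 216. Otoa, whose longest transcript of any kind has 4347 nt, lay in a range where 69.5% of 462 other calls were lower. The part of length in the change of any of the 3 members was not tested.

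**Figure D3:**
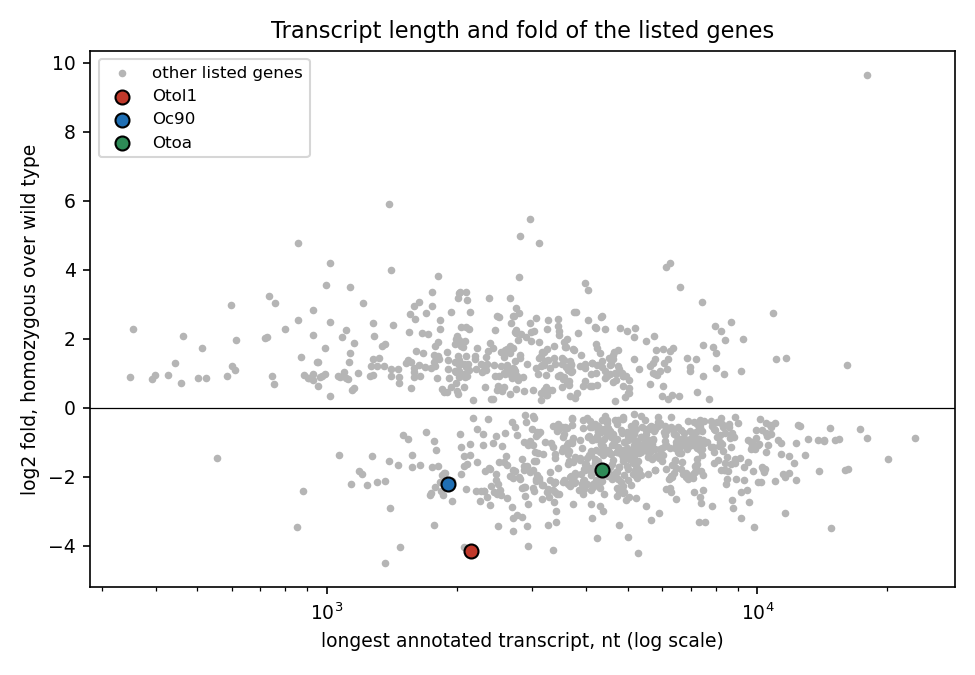
Longest annotated transcript in nt on a log axis against the log2 fold of the homozygous comparison from the authors' deposited table, with each point a listed gene. Otol1 (2161 nt) and Oc90 (1909 nt) lie below 0 in a range of length where most listed genes lie above it, and Otoa (4347 nt) lies in the mass of longer lower genes.

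Promoter windows of 300 bases, from 250 before to 50 after the annotated start, were found for Otol1 and Otoa in the RefSeq table of build GRCm38.p6. They are shown because both genes fell in homozygotes, with the bases up to the first annotated start of a coding transcript on the forward strand. In these lines capitals mark a CCAAT box, here read on the reverse strand. The Otol1 stretch is chr3:70007363-70007612 and the Otoa stretch is chr7:121083174-121083248.
Otol1: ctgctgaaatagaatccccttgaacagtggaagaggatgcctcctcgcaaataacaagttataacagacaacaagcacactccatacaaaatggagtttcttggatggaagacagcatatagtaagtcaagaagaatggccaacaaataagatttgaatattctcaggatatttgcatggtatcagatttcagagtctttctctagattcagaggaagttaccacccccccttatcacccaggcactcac
Otoa: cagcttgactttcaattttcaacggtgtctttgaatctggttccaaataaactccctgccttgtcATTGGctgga

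The windows differed in composition. The Otol1 window had 42.3% G and C and 2 CpG dinucleotides, and the Otoa window 58.0% and 5, against medians of 52.7% and 7 over 32851 promoter windows. For Otoa an annotated coding transcript begins 175 bases before the start used for the window. Most of the Otoa window therefore lies after that earlier start, and the 2 windows are not alike in place. Of those windows 14.9% had less G and C than that of Otol1. The motifs searched on both strands were the Otx core TAATCC, the GATA core AGATAA, the E box CANNTG, the CCAAT box CCAAT, the TATA box TATAAA and the retinoic acid receptor hexamer AGGTCA. They occurred in 7.06%, 11.2%, 72.3%, 37.4%, 13.6% and 16.3% of all windows, in that order. The CCAAT box was the only one of the 6 present in both windows, at bases 5 to 9 after the start in Otol1 and at bases -185 to -181 from it in Otoa. An E box lay after the start of Otoa and none was in the Otol1 window. The Otx, GATA, TATA and AGGTCA letters were in neither window, which says nothing of binding outside them.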

How the data were processed

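Otocyst RNA libraries, 2 per genotype, were grouped by the genotype in their titles. The deposited tables are 4 lists of genes called by the authors, 1 per direction and comparison, where each gene has a log2 fold and an adjusted p-value that the authors computed before they deposited them. The deposited log2 values are mutant over wild type, as the fall of Chd7 in both lists shows. Bowtie2 2.0.6, DESeq 1.22.1 and build mm9 appear, without roles, in the submitters' processing notes. Filters, strand setting and normalisation are not stated there. Because the lists hold no counts per library, the count test planned for that case was not run. Percentages of wild type are 2 to the power of the log2 fold.

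Members, gene lists and the rule for named genes (members, Chd7, up to 8 called genes of a list, and the 3 nearest genes in fold, passing over predicted genes) were chosen with earlier results of these data known. Some genes that the rule names are counted but are not reported by name. Symbols were matched to GENCODE M21, another build than the authors', for 1078 of 1085 homozygous and 137 of 138 heterozygous genes. It served for names, lengths and neighbours, and its protein-coding genes stand in for the genes tested. Motif and ranking code was tested on simulated data. Python 3.11.15, numpy 2.4.6, pandas 2.3.3 and matplotlib 3.10.9 were used.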

Additional observations from a re-analysis of the deposited data

How the results depend on the processing

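All 3 members remained listed in homozygotes with a log2 fold of a size of at least 1 and when letter case was ignored and RefSeq synonyms were allowed. Otol1 and Oc90 remained at an adjusted p under 0.01 and under 0.001, which Otoa did not pass, and with a log2 fold of a size of at least 2, which Otoa did not reach. In heterozygotes 0 members were listed when letter case was ignored and RefSeq synonyms were allowed. The stricter adjusted p of 0.01 could not change this count, since it only shortens a list that held 0 members. Ranked by adjusted p, Otol1 moved from 3 to 54, Oc90 from 115 to 69 and Otoa from 222 to 594. Among lower genes with an adjusted p under 0.01 Oc90 held rank 92, and Otol1 kept rank 3. At an adjusted p under 0.01 the matrix list had 3 lower and 0 higher genes in homozygotes and 1 lower in heterozygotes, and the ion and oxidase list and the mesothelin-related genes had 0 lower. With a log2 fold of a size of at least 1 the matrix list had 0 higher genes in homozygotes and 0 lower in heterozygotes. With the adjusted p also held within a factor of 10, 0 of the 3 nearest genes stayed for Otol1, 0 for Oc90 and 2 for Otoa. Without the 50 bases after the start, the share of promoters with a CCAAT box was 33.8% and Otol1 held none. Leaving out single libraries could not be done, and depth limits are unknown, since the lists hold no library values. No paired analysis was possible because the deposited lists hold no values per library.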
